A study of Mus musculus with 6 samples.

Results

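The 9 genes described here are the nuclear effectors and the cytoplasmic inhibitors of Notch signalling. They are Rbpj, the 3 Mastermind-like genes Maml1, Maml2 and Maml3, the corepressor gene Spen, the acetyltransferase genes Ep300 and Crebbp, and the adaptor genes Numb and Numbl. They were chosen by symbol from the authors' deposited table of 14472 genes, where all 9 stand on a single row each and have a p-value. The RNA came from the mouse line mLPS1 (dedifferentiated liposarcoma, a tumour of the fat lineage), in 3 libraries labelled NICD knockout (p34, p36 and p39 in their titles) and 3 labelled wild type (p35, p37 and p40). NICD stands for the Notch intracellular domain. Apart from the genotype, the labels give no treatment and no time, and the p numbers are not explained in them. Each genotype is named as 1 cell line, and nothing says that its libraries came from separate cultures, so the spread behind each p-value may be only technical. The labels speak of a knockout and the series title of over-expression, and the direction of every change, knockout over wild type, rests on the name of the deposited table.

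When a Notch receptor is activated, proteases release its intracellular domain, which travels to the nucleus and binds Rbpj, the DNA-binding protein of the pathway. Without that fragment Rbpj recruits corepressors such as Spen, and with it Mastermind proteins join the complex and bring in the histone acetyltransferases encoded by Ep300 and Crebbp. Numb and Numbl encode endocytic adaptors that hold Notch signalling down upstream of these steps, by promoting removal and degradation of the receptor.

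The deposited table holds 1 comparison, and no values per library were used here, so the depth and the spread of each group are unknown. The mean normalised counts in the authors' deposited table sum to 21033526, and the standard error (SE) of the log2 fold change (log2FC, knockout over wild type) had a median of 0.16 over the 10479 genes that average at least 100. The authors' deposited table gives the receptor gene Notch1 a log2FC of -1.78 (SE 0.13). Whether reads of the altered intracellular domain count on its row was not tested. Of 8 direct Notch targets 7 were tested, and all 7 were lower at an adjusted p under 0.05 (DESeq2), where 25.1% of all tested genes were. Their median was -6.31, and Heyl (SE 1.11) and Dtx1 (SE 0.98) were the least precise of them. Of 7 mesenchymal markers 6 were tested in the authors' deposited table, with a summed fitted level of 83176 in the knockout and 152259 in wild type. Of these, Vim (log2FC -0.56), Col1a1 (-1.94) and Pdgfrb (-3.02) fell, Pdgfra (2.36) and Col1a2 (1.27) rose, and Cd44 (-0.06) did not pass. None of the 3 epithelial markers was tested. Of the 3 tested leukocyte markers (of 4), Cd68 rose, and their summed fitted level was 2263 in the knockout and 272.4 in wild type, while Ptprc, the defining leukocyte gene, averaged 8.73 in the authors' deposited table. The 3 endothelial markers summed to 45.5 in the knockout and 59.9 in wild type on the same fitted scale, and Kdr among them fell (-1.91). Of 5 adipocyte markers 2 were tested and summed to 311.8 in the knockout and 18.8 in wild type. Fabp4 rose, at 307.4 in the knockout and 4.37 in wild type, while Pparg, at 4.39 in the knockout and 14.4 in wild type, did not pass (log2FC -1.72, adjusted p = 0.0542, DESeq2). The part of these markers in the results was not tested. In bulk RNA, fewer cells of a type and less RNA per cell cannot be told apart.

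The transcription factor gene and 1 adaptor gene rose in the knockout, while Mastermind and acetyltransferase genes fell. At an adjusted p under 0.05 (DESeq2 Wald test, Benjamini-Hochberg adjustment over 14470 genes), 7 of the 9 genes passed in the authors' deposited table, against 50.5% of all tested genes. Rbpj and Numb were higher, where 25.4% of all tested genes were, and Maml2, Maml3, Ep300, Crebbp and Numbl were lower, where 25.1% of all tested genes were. Maml1 and Spen did not pass. Among genes with a mean of at least 100, which 8 of the 9 reach, the share called was 54.6%, with 24.4% higher and 30.2% lower. The median log2FC of the 9 genes was -0.40, beside 0.02 over all tested genes and -0.05 over those with a mean of at least 100. Of the 9 changes 3, those of Rbpj, Numb and Maml3, exceeded 2-fold in the fitted value.

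**Figure D1:**
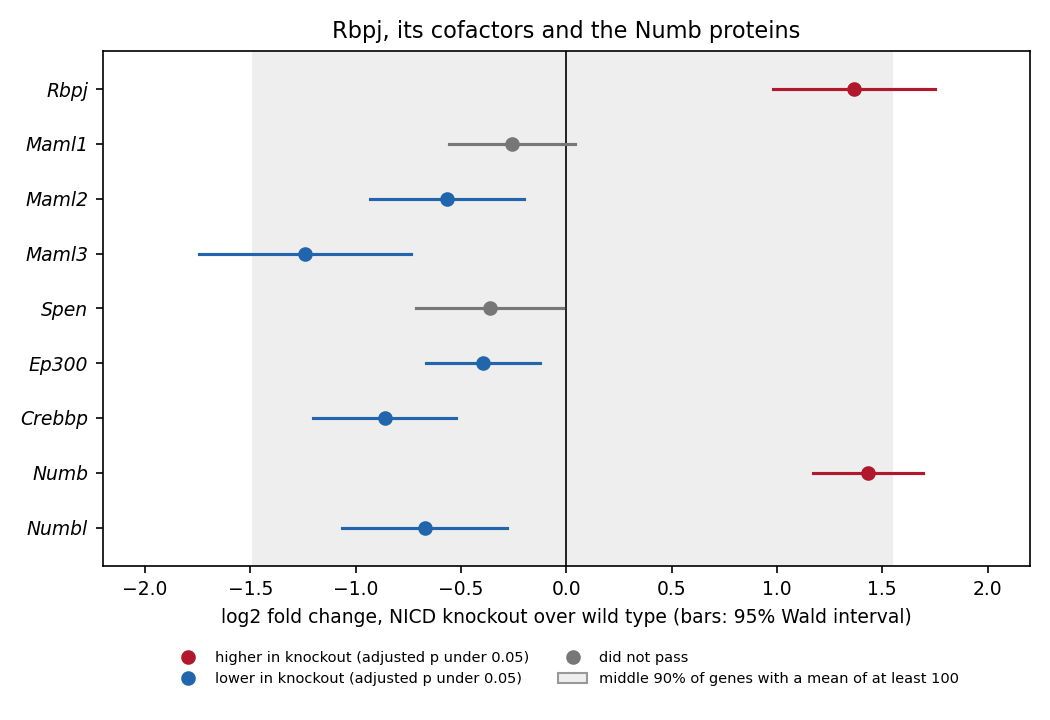
Log2FC of each gene, NICD knockout over wild type, from the authors' deposited table, with 95% Wald intervals as bars and the grey band holding the middle 90% of genes with a mean of at least 100 (-1.49 to 1.54). Rbpj (1.37) and Numb (1.43) lie on the right, and the other 7 points lie below 0.

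**Figure D2:**
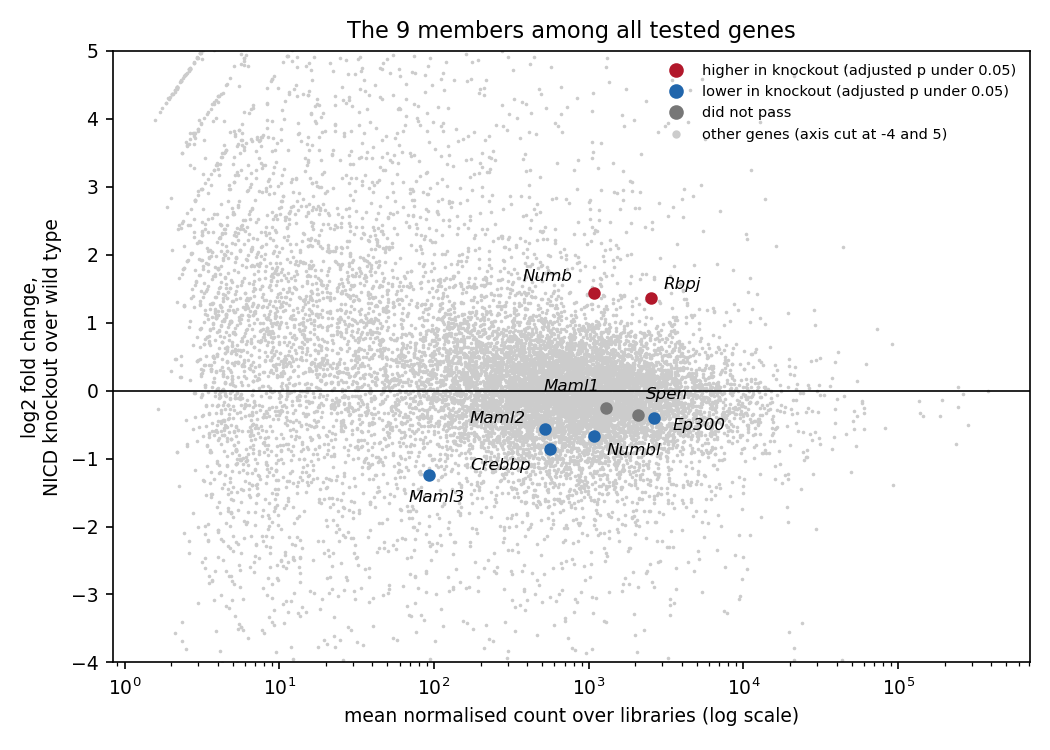
Mean normalised count over libraries (log axis) against log2FC, NICD knockout over wild type, for all tested genes in grey and the 9 genes in colour. Maml3, at a mean of 93.2, is the least expressed of the 9, and Ep300, at 2644, has the highest mean.

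Rbpj (ENSMUSG00000039191, chromosome 5) had a mean normalised count of 2533 in the authors' deposited table, above 88.4% of tested genes. Its fitted level was 3650 normalised counts in the knockout and 1416 in wild type, where a fitted level is derived from the deposited mean and fold change taking 3 libraries in each group. Its log2FC was 1.37 (SE 0.20, interval 0.98 to 1.75, adjusted p = 3.13e-11 by the DESeq2 Wald test) in the authors' deposited table, a rise of 2.58-fold, and 13.7% of tested genes had a higher value. It did not pass a test against a 2-fold change in place of no change (adjusted p = 0.205, Wald test on the deposited values). The mouse genome holds processed pseudogenes of Rbpj, of which the GENCODE M21 annotation names 2, Rbpj-ps1 and Rbpj-ps3. Neither has a row in the table used here, and the sources used here do not state how reads shared with them were assigned, so the level of Rbpj is uncertain to that extent.

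The promoter windows of the 9 genes were read from RefSeq (build GRCm38.p6, 250 bases before to 50 after a gene start) because Rbpj is the factor that binds DNA in this pathway. All 9 genes matched, with 13 windows. The core letters of the Rbpj motif, TGGGAA or its reverse complement TTCCCA, stood in 5 of these windows, belonging to Rbpj, Maml2, Maml3 and Spen, and in 25.6% of all 32851 windows of the same length. The 2 Rbpj windows overlap and share 1 match, so that match is counted in 2 of the 5 windows. The longer GTGGGAA, which contains the shorter form, stood in 1 of the 13 windows, that of Spen, and in 6.38% of all windows. The windows of the steepest rise, Numb, and of the steepest fall, Maml3, are given with that of Rbpj itself, each read on the strand of its gene, with matches in capitals. The Rbpj window, the more upstream of its 2, is chr5:53590096-53590395 on the plus strand. The Maml3 window is chr3:52104957-52105256 on the minus strand. The Numb window, the most upstream of its 3, is chr12:83921885-83922184 on the minus strand.
Rbpj: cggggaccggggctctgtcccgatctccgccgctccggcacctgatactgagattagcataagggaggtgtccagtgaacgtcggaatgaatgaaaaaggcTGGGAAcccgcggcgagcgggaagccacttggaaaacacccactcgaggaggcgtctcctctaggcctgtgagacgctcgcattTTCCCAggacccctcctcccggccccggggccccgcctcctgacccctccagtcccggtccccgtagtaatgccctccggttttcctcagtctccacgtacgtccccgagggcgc
Maml3: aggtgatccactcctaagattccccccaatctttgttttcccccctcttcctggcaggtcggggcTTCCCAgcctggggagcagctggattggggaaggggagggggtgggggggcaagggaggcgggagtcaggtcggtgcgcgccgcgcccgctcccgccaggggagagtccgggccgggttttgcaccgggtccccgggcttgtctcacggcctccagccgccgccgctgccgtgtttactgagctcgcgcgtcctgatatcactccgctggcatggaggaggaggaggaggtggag
Numb: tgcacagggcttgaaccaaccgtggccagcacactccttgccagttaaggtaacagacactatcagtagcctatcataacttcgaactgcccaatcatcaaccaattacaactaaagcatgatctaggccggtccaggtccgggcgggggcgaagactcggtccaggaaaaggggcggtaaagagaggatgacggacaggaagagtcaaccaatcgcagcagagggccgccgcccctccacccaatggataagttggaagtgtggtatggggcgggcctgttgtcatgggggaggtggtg
The Rbpj window holds the letters at 2 places, beginning 149 and 65 bases before the gene start, and the Maml3 window at 1, beginning 185 bases before it. The 3 Numb windows hold no match. A match is a run of letters and not a measured binding site, and genes with a match rose (Rbpj), fell (Maml2, Maml3) or did not pass (Spen). The same search covered 5 windows of 5 direct Notch targets, and 2 held the letters, those of Hey2 (log2FC -7.59) and Hes5 (not tested). The windows of Nrarp (-6.31), Notch3 (-4.99) and Dtx1 (-2.65) held no match, so genes listed as direct targets also lacked the letters here.

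The Mastermind genes encode the coactivators that lock the Notch fragment onto Rbpj, and Maml2 and Maml3 fell in the knockout. Maml3 (ENSMUSG00000061143, chromosome 3) had fitted levels of 55.4 normalised counts in the knockout and 130.9 in wild type, and the steepest fall of the 9 genes. Its log2FC in the authors' deposited table was -1.24 (SE 0.26, interval -1.74 to -0.74, adjusted p = 7.14e-06, DESeq2), 2.36-fold lower. It is also the least precise of the 9, as the SE shows, and 8.89% of tested genes had a lower value. Maml2 (ENSMUSG00000031925, chromosome 9) had fitted levels of 418.7 in the knockout and 620.0 in wild type. Its log2FC was -0.57 (SE 0.19, interval -0.93 to -0.20, adjusted p = 0.00618, DESeq2) in the authors' deposited table. Maml1 (ENSMUSG00000050567, chromosome 11) had fitted levels of 1180.5 in the knockout and 1412 in wild type, and did not pass, at a log2FC of -0.26 (interval -0.56 to 0.04, adjusted p = 0.151, DESeq2) in the authors' deposited table.

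Per length, Maml1 was the main Mastermind transcript in both groups. Divided by the longest protein-coding transcript in GENCODE M21, its fitted level was 213.5 normalised counts per kb in the knockout and 255.4 in wild type. Maml2 stood at 65.4 per kb in the knockout and 96.8 in wild type, and Maml3 at 6.69 per kb in the knockout and 15.8 in wild type. Maml1 thus made up 74.8% of the summed Mastermind level in the knockout and 69.4% in wild type, and Maml3 2.34% in the knockout and 4.29% in wild type. With mean in place of longest transcript length the share of Maml1 was 63.1% in the knockout and 57.1% in wild type. The log2FC of Maml3 minus that of Maml1 was -0.98 (interval -1.57 to -0.39), and minus that of Maml2 it was -0.67 (interval -1.30 to -0.05). Maml2 minus Maml1 gave -0.31, with an interval of -0.78 to 0.16 that includes 0. Of 5 pairs of related genes compared in this way, 4 had intervals without 0. These intervals treat the errors of the paired genes as independent, which was not tested, and the pairs were compared with their values known.

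Spen encodes a large RNA-binding corepressor that ties Rbpj to histone deacetylases. Spen (ENSMUSG00000040761, chromosome 4) had fitted levels of 1811 normalised counts in the knockout and 2331 in wild type. Its log2FC of -0.36 (SE 0.18, interval -0.71 to -0.01) in the authors' deposited table did not pass after adjustment (adjusted p = 0.0772, DESeq2). Of its sequence relatives in the same protein family, Rbm15 fell with a log2FC of -0.83 (adjusted p = 1.86e-04) and Rbm15b stood at 0.02 (adjusted p = 0.927) by DESeq2 in the authors' deposited table. Rbpjl, the relative of Rbpj, was not tested.

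Ep300 and Crebbp encode closely related acetyltransferases that serve many transcription factors besides the Notch complex, and both fell. Ep300 (ENSMUSG00000055024, chromosome 15) had fitted levels of 2283 normalised counts in the knockout and 3005 in wild type. Its log2FC was -0.40 (SE 0.14, interval -0.67 to -0.13, adjusted p = 0.0101, DESeq2) in the authors' deposited table, 1.32-fold lower. Crebbp (ENSMUSG00000022521, chromosome 16) had fitted levels of 397.9 in the knockout and 723.2 in wild type, and fell 1.82-fold in the authors' deposited table (log2FC -0.86, SE 0.17, adjusted p = 3.42e-06, DESeq2). Per kb of the longest transcript, Ep300 exceeded Crebbp 6.49-fold in the knockout and 4.70-fold in wild type. The difference of their log2FCs, Crebbp minus Ep300, was -0.47 (interval -0.90 to -0.03), and it was 0.00 after the median of each gene's chromosomal neighbours was subtracted.

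Numb and Numbl moved in opposite directions. Numb (ENSMUSG00000021224, chromosome 12) had fitted levels of 1573 normalised counts in the knockout and 582.6 in wild type. It rose 2.70-fold in the authors' deposited table (log2FC 1.43, SE 0.13, interval 1.17 to 1.69, adjusted p = 1.89e-25, DESeq2), the highest value of the 9 genes. Among the 9, Numb alone passed the test against a 2-fold change (adjusted p = 0.00620, Wald test on the deposited values). Numbl (ENSMUSG00000063160, chromosome 7) had fitted levels of 829.7 in the knockout and 1322 in wild type, and fell 1.59-fold in the authors' deposited table (log2FC -0.67, SE 0.20, interval -1.06 to -0.28, adjusted p = 0.00232, DESeq2). The difference between their log2FCs, Numb minus Numbl, was 2.10 (interval 1.63 to 2.58), and 0.88 with the median over all neighbours of each subtracted, which around Numb mixes genes that rose and genes that fell. Per kb of the longest transcript, Numb stood at 443.1 in the knockout and 164.1 in wild type, and Numbl at 300.6 in the knockout and 479.0 in wild type. Numb therefore held 59.6% of their summed level in the knockout and 25.5% in wild type, or 69.3% in the knockout and 34.5% in wild type with mean transcript lengths. In GENCODE M21 exons of Numb overlap Gm46367 on the opposite strand and exons of Numbl overlap Gm44641 on the same strand. Neither has a row in the table used here, and the sources used here do not state whether counting used strand.

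**Figure D3:**
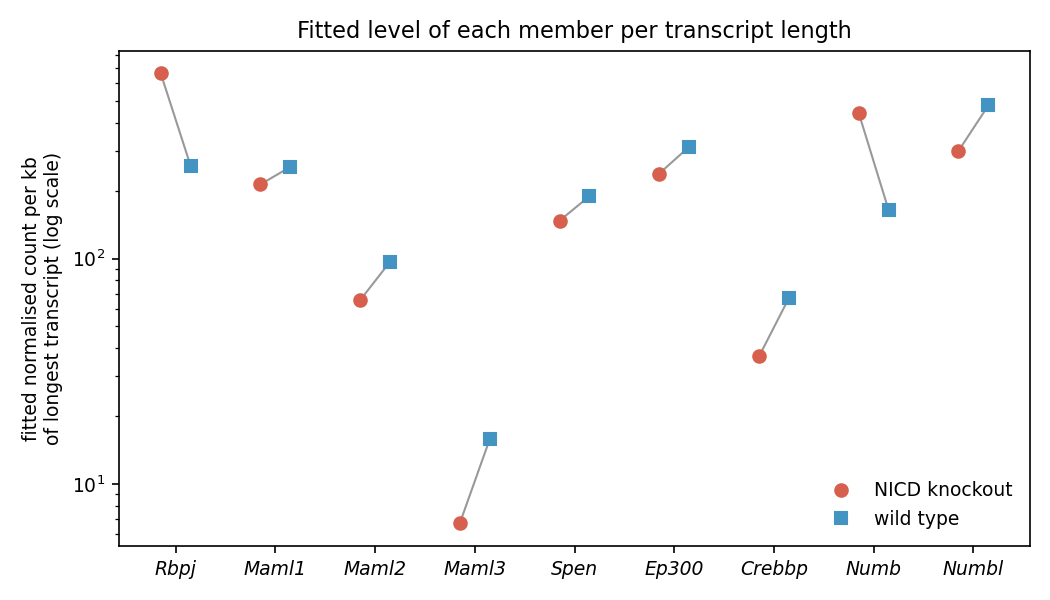
Fitted normalised count per kb of the longest annotated transcript (log axis) for each gene in the NICD knockout (circles, left) and wild type (squares, right), with no error bars because no values per library were used. Rbpj (665.4 in the knockout, 258.1 in wild type) and Numb (443.1 in the knockout, 164.1 in wild type) are higher in the knockout, and Maml3 is the lowest in both groups.

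Per kb, the order of the fitted levels differed between the groups. In the knockout it ran from Rbpj at 665.4 through Numb, Numbl, Ep300, Maml1, Spen, Maml2 and Crebbp to Maml3 at 6.69, and in wild type from Numbl at 479.0 through Ep300, Rbpj, Maml1, Spen, Numb, Maml2 and Crebbp to Maml3 at 15.8. Without the spread over libraries, which neighbours in this order differ cannot be said. With mean transcript lengths Numb stood at 251.8 per kb in wild type, above Spen, and the order was otherwise as given. The ratio of Rbpj to the summed Mastermind level was 2.33 in the knockout and 0.70 in wild type, or 2.03 in the knockout and 0.60 in wild type with mean transcript lengths.

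The 9 genes lie on 9 chromosomes, and their neighbours did not all move with them. Neighbours are the expressed protein-coding genes (mean of at least 100), up to 10 on each side, in the gene order of GENCODE M21 (GRCm38). Around Rbpj the authors' deposited table calls 13 of 20 neighbours lower and 4 higher, with a median log2FC of -0.56, and 1 of the 20, the protocadherin gene Pcdh7 at 2.15, exceeded Rbpj. The genes on either side of Rbpj, Smim20 and Tbc1d19, had log2FCs of 0.44 and 0.49 in the authors' deposited table. After subtraction of the neighbour median Rbpj stood at 1.93.

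Numb lay inside a run of genes that rose together. Counting outward from Numb, 4 genes on the side of lower coordinates and all 10 on the other had log2FCs above 0 in the authors' deposited table, between 0.31 and 2.30, and 13 of these 14 were called higher. The 6 next genes on the side of lower coordinates were all called lower. The median over all 20 neighbours was 0.95 and mixes both directions, and 8 of the 20 exceeded Numb. The 14 genes of the run, picked for having the sign of Numb, had a median of 1.44, beside 1.43 for Numb (difference -0.0060, interval -0.27 to 0.26). That interval holds the SE of Numb alone and no error of the median. The choice by sign favoured a likeness, so whether Numb differs from its region cannot be said from it.

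Around Ep300 the neighbour median was 0.19, opposite in sign to Ep300, and around Maml1 and Spen it was -0.01 and 0.01. Around Maml2, Maml3, Crebbp and Numbl it was -0.17, -0.21, -0.27 and -0.28, the same sign as these genes. With neighbours subtracted, Maml2 and Numbl no longer passed, at -0.40 each (adjusted p = 0.0656 and 0.0898, Wald test on the deposited values). Maml3, Ep300 and Crebbp stood at -1.03, -0.59 and -0.59 and passed. These tests use the SE of each gene alone and take the neighbour median as free of error, so they look firmer than they are.

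**Figure D4:**
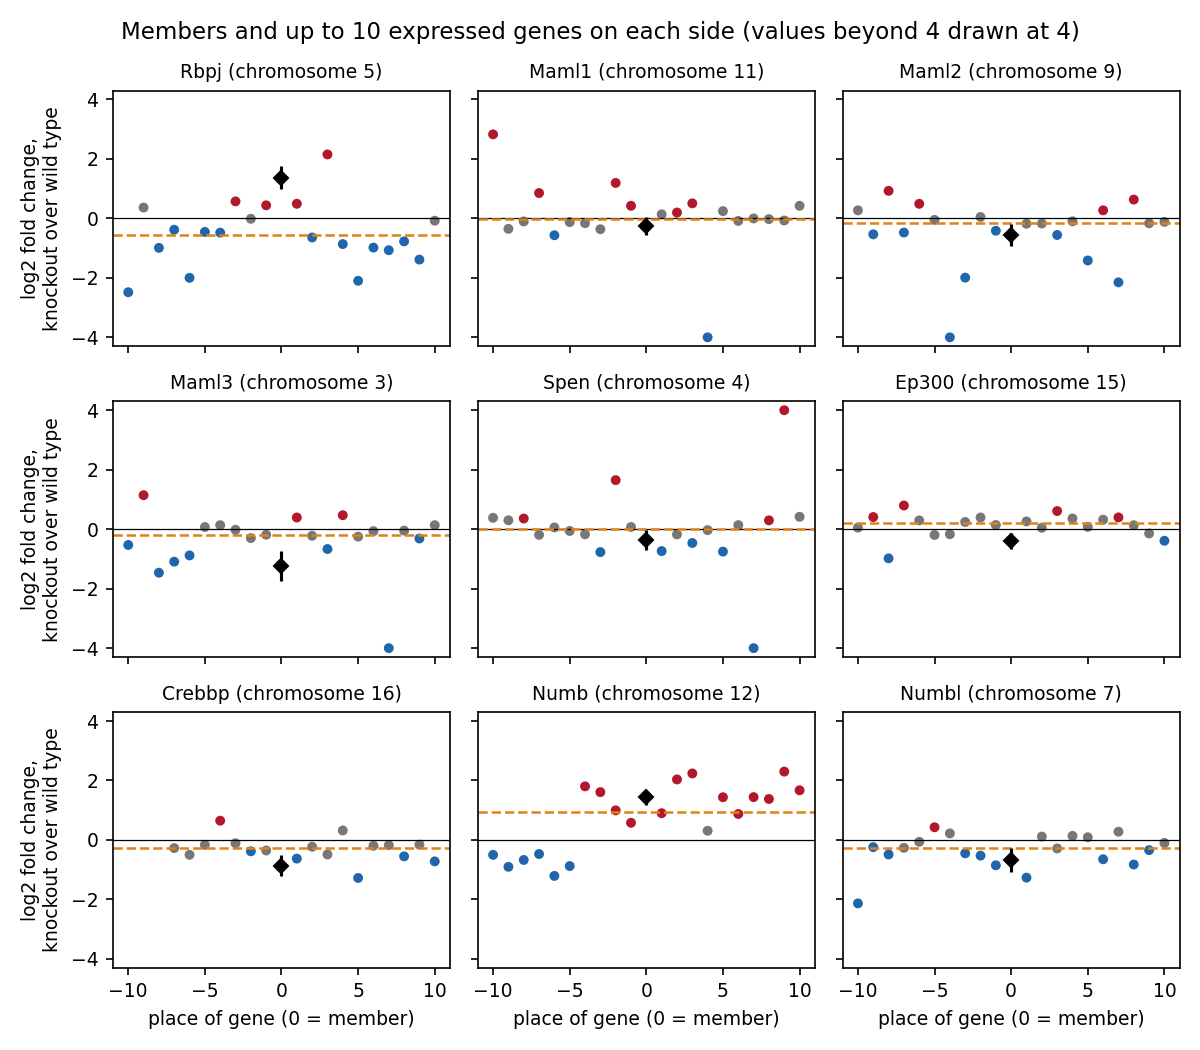
Log2FC, NICD knockout over wild type, of each gene (black diamond with its 95% Wald interval, place 0) and of up to 10 expressed genes on each side in gene order, with the neighbour median as a dashed line. Red genes were higher, blue lower and grey did not pass. The Numb panel shows the run of 14 neighbours above 0, and the Rbpj panel shows 15 of 20 neighbours below 0.

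Partners of the 9 genes were read from 5 lists, of which 59 genes were tested, and the authors' deposited table calls 26 lower and 9 higher. Beside these counts and those of each list, 25.1% of all tested genes were lower and 25.4% higher. Among genes with a mean of at least 100, 30.2% were lower and 24.4% higher. Corepressor partners of Rbpj had 11 of 18 lower and 3 higher, with a median log2FC of -0.46. Among them Bend6, which encodes a nuclear antagonist of Notch that binds Rbpj, fell 3.65-fold, and Snw1, a splicing and transcription cofactor also known as Skip, fell 1.79-fold in the authors' deposited table. Around Snw1 the neighbours had a median of -0.84, equal to its own log2FC of -0.84. Tbl1xr1, a subunit of nuclear receptor corepressor complexes, rose 3.42-fold in the authors' deposited table (log2FC 1.78, SE 0.13, adjusted p = 1.04e-40, DESeq2). Its neighbours had a median of 0.49.

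Of the coactivator partners of the complex, the authors' deposited table calls 4 of 11 lower and 2 higher, with a median of -0.05. The arginine methyltransferase gene Carm1 fell with a log2FC of -0.57, the chromatin remodeller gene Smarca4 with -0.54 and the histone demethylase gene Phf8 with -0.46 in the authors' deposited table, and the Mediator kinase module gene Med13 rose with 0.50. The list for turnover of the Notch fragment had 7 of 11 genes called lower and 0 higher by DESeq2 in the authors' deposited table. Its median was -0.35, and 0 more were higher at an unadjusted p under 0.05. The list is not specific to the released fragment, as ligases such as those of Cbl and Nedd4 also act on the whole receptor. The kinase gene Gsk3b fell 2.06-fold, the ubiquitin ligase gene Cbl 2.36-fold, the ligase scaffold gene Cul1 1.47-fold and the ligase gene Nedd4 1.25-fold in the authors' deposited table. Around Cul1 the neighbours had a median log2FC of -0.86. For the coactivator partners Med13 and Phf8 that median was 0.25 and 0.34, the latter opposite in sign to Phf8. Fbxw7, the ubiquitin ligase component that recognises the nuclear Notch fragment, did not pass, at a log2FC of -0.01 in the authors' deposited table. Of the same list, Skp1 (0.08), Rbx1 (0.14) and Gsk3a (0.19) did not pass either. Fbxw7, Skp1, Rbx1 and Gsk3a are named here outside the rule of the 4 smallest p-values per list.

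Of the partners of Numb, the authors' deposited table calls 4 of 17 higher and 3 lower, with a median of 0.06. The polarity kinase gene Prkcz rose 13.4-fold in the authors' deposited table (log2FC 3.75, SE 0.35, adjusted p = 5.56e-25, DESeq2), and its relative Prkci, a kinase of the same polarity complex, rose 1.60-fold. Mdm2, the ligase of p53 that binds Numb, rose 1.66-fold, and Aak1, a kinase that phosphorylates endocytic adaptors, fell 2.58-fold in the authors' deposited table. Around Aak1 the neighbours had a median log2FC of -0.67, around Prkci 0.35, and around Prkcz -0.16, opposite in sign to Prkcz. The share called was 77.8% in the corepressor list, 54.5% in the coactivator list, 63.6% in the turnover list, 41.2% among Numb partners and 50% of the 2 tested sequence relatives. It was 50.5% of all tested genes and 54.6% of those with a mean of at least 100.

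**Figure D5:**
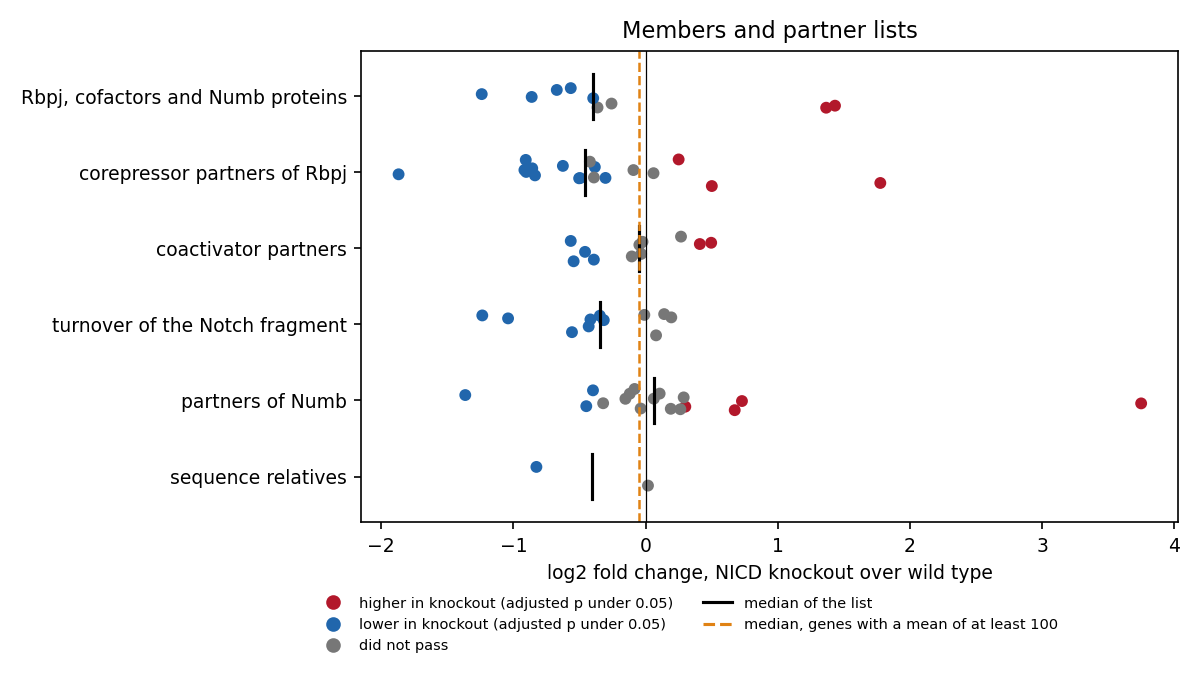
Log2FC, NICD knockout over wild type, of the 9 genes and of the tested genes of the 5 partner lists, each point a gene and each black bar a list median, with the dashed line at the median of genes with a mean of at least 100 (-0.05). The corepressor and turnover lists have medians of -0.46 and -0.35, and the point at 3.75 is Prkcz.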

How the data were processed

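Total RNA of 3 NICD knockout and 3 wild type libraries was extracted with TRI Reagent, per the labels' protocols, and groups follow the genotype label. Salmon, DESeq2 and the build mm39 are listed in the submitters' processing notes, without versions or settings. Per the file headers, the authors deposited for each gene the mean of normalised counts, a signal that is never negative, and a log2 fold change (log2FC) and the standard error (SE) of that change. They also deposited the Wald statistic, a score, and its p-value with an adjusted p-value, per the file headers. Recomputing the last 3 from the other columns gave differences of at most 1.56e-13. Of 14472 rows, 2 have no p.

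Calls are those of the authors' DESeq2 Wald test at an adjusted p under 0.05, since no values per library were used here, and the planned edgeR fit of counts was left out. Intervals (95%) are the log2 fold change plus or minus 1.96 SE. Gene order and transcript lengths came from GENCODE M21 (GRCm38), matched by Ensembl identifier for 14456 rows (99.9%), and neighbours are up to 10 genes on each side with a mean of at least 100. That build is not the authors', and no measured value was read by coordinate. The Wald calls and the neighbour step were tested on simulated data, and the other steps were not. That simulation drew independent errors and changed far fewer genes than are called here, so it does not check the calls in this setting. The 9 genes and all lists were chosen with earlier results of these data known. The rule named all 9 genes, the 4 genes with the smallest p in each list, and lists of at most 3 in full, and some of the genes it named are not reported here. Python 3.11.15, numpy 2.4.6, pandas 2.3.3, scipy 1.17.1 and matplotlib 3.10.9 were used.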

Additional observations from a re-analysis of the deposited data

How the results depend on the processing

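Each of the 9 genes kept its direction under the alternatives run for all of them (7, or 6 for Maml3, whose mean of 93.2 leaves it out at a minimum of 100). Numb, and the genes that had not passed, Maml1 and Spen, kept their side of the threshold under these 7. Another was chosen after seeing the data and run for Numb only. It subtracted the median of the 14 genes of the run around Numb (1.44) and left -0.0060, which did not pass. Because that run was picked by the sign of Numb, this alternative cannot decide whether Numb differs from its region. Subtracting the median of all 20 neighbours, 6 of them outside the run and lower, had left 0.49.

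At an adjusted p under 0.01, Ep300 (-0.40) did not pass, and the corepressor list had 1 higher, the coactivator list 1 higher and the turnover list 4 lower. Under Bonferroni adjustment 3175 genes passed (1516 higher, 1659 lower). Of the 9 genes 2 were then lower, as Maml2 (-0.57), Ep300 (-0.40) and Numbl (-0.67) did not pass. The corepressor list had 1 higher and 7 lower, the coactivator list 0 higher and 1 lower, the turnover list 3 lower, Numb partners 1 lower and sequence relatives 0 lower.

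In the test of a change beyond 2-fold 1764 genes passed (1016 higher, 748 lower). Of the 9 genes 1 was higher and 0 lower, as Rbpj (1.37), Maml2 (-0.57), Maml3 (-1.24), Ep300 (-0.40), Crebbp (-0.86) and Numbl (-0.67) did not pass. The corepressor list had 1 higher and 1 lower, the coactivator list 0 and 0, the turnover list 0 lower, Numb partners 1 higher and 0 lower and sequence relatives 0 lower. These tests are stricter by construction.

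Centring on genes with a mean of at least 100 gave 1 higher gene in the turnover list. With neighbours subtracted, 3 of the 9 genes were lower, Maml2 (-0.40) and Numbl (-0.40) did not pass, the coactivator list had 1 higher, and the turnover list 2 higher and 4 lower. The cause was not tested. The other 137 values kept their direction and their side of the threshold, or a count within 1.5 times.

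No paired analysis was possible because no values per library were used. Leaving out replicates, edgeR, another normalization and no count filter were not run for the same reason. The p numbers of the groups differ but lie side by side (p34 and p35, p36 and p37, p39 and p40). The labels do not say whether these libraries are pairs, and a pairing would be ignored by the test used. The depth per library is unknown, so how far it limits Maml3, the least expressed of the 9, cannot be said.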

Other observations

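Some genes near the 9 have known roles in Notch or TGF-beta signalling. Rbx1, a subunit of the ubiquitin ligase that degrades the nuclear Notch fragment, is the nearest expressed neighbour of Ep300 on 1 side and did not pass, at 0.14 (adjusted p = 0.498, DESeq2) in the authors' deposited table. Tgfb1, which encodes a growth factor, lies 10 places from Numbl and fell with a log2FC of -2.13 in the authors' deposited table, and the matrix gene Ltbp4, whose product binds latent TGF-beta, lies next to Numbl and fell with -1.27. These genes were chosen after their values were seen.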
